A study of Mus musculus with 50 samples.

Results

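Ribosome-bound RNA of D1-MSNs, the medium spiny neurons of the nucleus accumbens (NAc) that express the dopamine receptor gene *Drd1*, was compared between mice susceptible to social defeat (Sus) and undefeated controls (Con). The libraries were chosen by their labels: 5 D1 Sus IPs and 4 D1 Con IPs, 9 of the 50 samples of the series. All 9 carry the genotype RT; D1-Cre on a C57BL/6 background, aged 8 to 12 weeks, and each library holds the pooled NAc of 2 mice. The Sus mice met an unfamiliar aggressive CD1 male for 10 min per day by the sample labels (the study's methods give a shorter time) on up to 10 days and were sorted by a social interaction test 24 h after the last defeat, whereas Con mice were housed with mice of their own strain. RT is the RiboTag allele: where Cre is active, the ribosomal protein Rpl22 gains an HA tag, and an antibody against HA precipitates ribosomes with the mRNA on them (IP). Input is RNA of the homogenate before precipitation, from all cells of the tissue. The Cre line is a BAC transgene driven by the *Drd1* promoter, so the tag marks every cell in which that transgene was ever active. Both groups carry tag and Cre, and they differ by defeat and by the sorting that followed it, which cannot be told apart here. The study sequenced its samples in several sets that are not named per library in the sources used here, so no values within a set can be given.

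D1-MSNs send the direct output of the striatum. Dopamine acting on Drd1 raises cAMP in them through the G protein subunits Gnal, Gnb and Gng7 and the adenylyl cyclase Adcy5, and the kinase PKA then phosphorylates DARPP-32, the product of *Ppp1r1b*. D2-MSNs carry Drd2 and the adenosine receptor Adora2a and make enkephalin from *Penk*, while D1-MSNs make dynorphin from *Pdyn* and substance P from *Tac1*. In the NAc both neurons receive glutamate from cortex, hippocampus and amygdala, and their balance is known to shape motivated and social behavior after stress.

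No gene differed between D1 Sus and D1 Con once the test was adjusted for all genes. Of 14224 genes tested, 0 had an adjusted p under 0.05. The smallest adjusted p was 0.577, of *Pnpla2* (edgeR's quasi-likelihood test with Benjamini-Hochberg adjustment). DESeq2 also called 0, with a smallest adjusted p of 0.0848. At an unadjusted p under 0.05, the threshold the study used for its stress groups, 759 genes (5.34%) were called, 355 higher (2.5%) and 404 lower (2.84%) in Sus. With no difference in any gene, this threshold passes 711 of 14224 genes. The called genes are therefore described here as single genes with their values and as counts within gene lists. Each such count is to be read beside the shares over all genes given above. The words "rose", "fell" and "called" refer to the unadjusted p. Among the called genes named below, the adjusted p was 0.846 for each but *Pnpla2* (edgeR). Fold changes are log2 of Sus over Con with a standard error (SE), and levels are CPM, the counts of a gene scaled by the TMM-adjusted library size, given as mean ± SD.

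The libraries were of similar depth, and 1 control library and 1 Sus library stood apart, in different measures. Counts on genes ran from 26378222 to 30187149 in Con and from 23398742 to 28452699 in Sus. The library D1 Sus 5 had the fewest counts and the lowest TMM factor (0.957, next lowest 0.995 in D1 Con 1). It also had the largest share of reads outside any gene (24.5%, next largest 20.9% in D1 Sus 2). In the library D1 Con 1, genes richer in input than in IP stood lower against genes richer in IP than in any of the other 8 libraries (-0.35 on the log2 scale, the others -0.04 to 0.18), and the sums of astrocyte and of cortical neuron markers were the lowest of the 9. Its median over 32 genes of MSN identity and cAMP signalling lay 0.25 above the mean of the 9 libraries on the log2 scale, and the other 3 Con libraries lay between -0.02 and 0.03. Without D1 Con 1 the same model called 482 genes (3.36%), of which 312 were among the 759. Without D1 Sus 5 it called 687 genes (4.83%), of which 492 were among the 759.

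The D1-IPs were checked against markers of the labelled cells. In D1 Con, *Drd1* was 1.81 times its input level and 2.50 times its level in D2 Con IPs, and *Pdyn* was 2.90 and 5.25 times. Of the other D1-MSN markers, *Sfxn1*, *Eya1* and *Ebf1* were at 0.968, 1.06 and 1.21 times their input level. They were 1.53, 1.18 and 9.28 times their level in D2 Con IPs. The rest of the list ran from 1.62 (*Isl1*) to 2.58 (*Asic4*) times the input level. Markers of D2-MSNs were not depleted against input: *Drd2* was 1.30 times and *Penk* 2.83 times the input level in D1 Con IPs, although they reached only 0.296 and 0.390 of the level in D2 Con IPs. Astrocyte markers were low in the IPs, with *Aqp4* at 0.0564 and *Slc1a3* at 0.0604 of their input level. Markers of cortical and glutamatergic neurons were not as low, and varied: *Slc17a7* was 1.73 times and *Tbr1* 1.68 times the input level. *Slc17a6*, *Cux2*, *Fezf2* and *Rorb* were at 0.887, 0.861, 0.698 and 0.611 of their input level. The D1-IPs were thus enriched in RNA of most D1-MSN markers and still held RNA of marker genes of D2-MSNs and of glutamatergic neurons.

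The 12 genes with the smallest p in each direction, 24 in all, among those with a mean of at least 1 CPM and no overlap between the groups, changed by 10.99% to 75.1%. No overlap was found for 334 of all genes tested (2.35%), and 181 genes (72 higher, 109 lower) met all conditions. The genes that rose were *Pnpla2*, *Pgm1*, *Sparcl1*, *Tubgcp4*, *Nfasc*, *Tor1aip1*, *Zfp458*, *Csmd2*, *Cep85l*, *Chd9*, *Ryr2* and *Etv6*. Those that fell were *Ccs*, *Chmp3*, *Ydjc*, *Smim20*, *Polr3g*, *Tmem268*, *Alg1*, *Fgf11*, *Bag5*, *Tgfa*, *Carhsp1* and *Fkbp1a*. All 24 stayed past the unadjusted threshold in each of the alternative fits that tested them, including the fit without D1 Con 1. The 24 were chosen from these same libraries for a small p and no overlap, so this is not independent support.

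*Pnpla2* had the smallest p. It encodes adipose triglyceride lipase, which starts the breakdown of stored triglycerides, and lies on chromosome 7 at 141455198 to 141460743 (GRCm38, plus strand). Its levels were 3.41, 3.61, 3.87 and 4.39 CPM in D1 Con 1 to 4 and 5.88, 5.80, 5.50, 5.38 and 6.03 CPM in D1 Sus 1 to 5. The lowest Sus library lay above the highest Con library, and the raw counts behind these levels were 98 to 119 in Con and 135 to 160 in Sus. The mean was 49.6% higher (log2 fold change 0.58, SE 0.12, n = 4 and 5). The same gene was at 4.65 ± 0.265 CPM in D2 Con and 5.04 ± 0.402 CPM in D2 Sus (n = 5 each) (log2 fold change 0.11, SE 0.11), which did not pass the test. In the input of the D1 line *Pnpla2* was at 12.2 ± 1.52 CPM in Con and 10.8 ± 1.79 CPM in Sus (n = 3 each), above its level in the IPs.

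*Ccs* had the smallest p among the genes that fell. It encodes the chaperone that loads copper into superoxide dismutase and lies on chromosome 19 at 4825366 to 4839332 (GRCm38, minus strand). Its levels were 15.1, 15.2, 13.3 and 14.5 CPM in D1 Con 1 to 4 and 11.7, 11.4, 11.7, 13.1 and 11.5 CPM in D1 Sus 1 to 5. The groups did not overlap, and the highest Sus library, D1 Sus 4, lay just under the lowest Con library. The mean was 18.2% lower (log2 fold change -0.29, SE 0.07, n = 4 and 5). D1 Res libraries, from defeated mice that were sorted as resilient, held 10.6 ± 0.480 CPM (n = 4), 0.45 lower than D1 Con on the log2 scale with an adjusted p of 0.0263 (edgeR); that comparison uses the same 4 Con libraries. In D2-IPs *Ccs* was at 12.2 ± 0.834 CPM in Con and 11.5 ± 0.881 CPM in Sus (n = 5 each).

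Promoter sequence is shown for *Pnpla2* and for 2 genes that fell, *Chmp3* and *Smim20*, which are among the 24 genes and have a promoter entry in RefSeq (GRCm38.p6). Each window ends before the gene's start in GENCODE. The windows are chr7:141454938-141455187, chr6:71543602-71543796 and chr5:53266856-53267082, all on the plus strand and 5′ to 3′. Capitals mark a GC box (GGGCGG) or a CCAAT box (CCAAT) on either strand.
Pnpla2: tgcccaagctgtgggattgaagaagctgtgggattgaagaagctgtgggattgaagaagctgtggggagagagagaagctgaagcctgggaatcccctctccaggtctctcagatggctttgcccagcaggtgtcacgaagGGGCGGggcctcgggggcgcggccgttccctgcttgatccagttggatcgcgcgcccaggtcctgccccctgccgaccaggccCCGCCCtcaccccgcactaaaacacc
Chmp3: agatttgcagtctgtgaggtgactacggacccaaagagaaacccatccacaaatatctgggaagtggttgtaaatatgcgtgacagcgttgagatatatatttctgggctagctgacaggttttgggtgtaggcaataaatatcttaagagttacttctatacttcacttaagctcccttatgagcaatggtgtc
Smim20: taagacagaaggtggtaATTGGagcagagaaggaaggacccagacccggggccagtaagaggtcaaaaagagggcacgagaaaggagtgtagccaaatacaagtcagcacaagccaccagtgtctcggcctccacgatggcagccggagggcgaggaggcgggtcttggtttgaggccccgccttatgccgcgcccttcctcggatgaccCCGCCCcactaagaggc
*Pnpla2* held 2 GC boxes, *Smim20* held 1 GC box and 1 CCAAT box, and none of the searched motifs was in the *Chmp3* window. For the shares that follow, the first 250 bases of each entry were searched, without a cut at the GENCODE start. Over 11042 tested genes with an entry, the GC box was in 59.1% of all promoters, 62.4% of 263 called higher and 53.9% of 310 called lower. The CCAAT box was in 36.4%, 34.6% and 39.4%. The CRE (TGACGTCA), where the cAMP-responsive factor CREB can bind, was in 2.78% of all, 3.42% of the higher and 3.87% of the lower promoters. AP-1 (TGANTCA), the E-box (CACGTG) and the TATA box (TATAAA) were in 3.93%, 8.45% and 6.17% of all promoters and in 3.04%, 8.75% and 7.98% of the higher against 3.23%, 8.71% and 6.45% of the lower ones. These shares are descriptions of letters in the windows, and no motif was tested for a difference.

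Values follow for other genes of the 12 that rose. *Nfasc* encodes neurofascin, an adhesion molecule of the axon initial segment, and rose from 281 ± 10.3 to 325 ± 9.07 CPM (log2 fold change 0.21, SE 0.05). Its Con libraries lay between 269 and 294 CPM and its Sus libraries between 315 and 338 CPM. *Csmd2*, a synaptic transmembrane protein, was 1.25-fold higher, at 55.9 ± 4.40 CPM in Con and 69.9 ± 1.80 CPM in Sus. *Ryr2*, the ryanodine receptor that releases calcium from the endoplasmic reticulum, was 1.19-fold higher, with 113 to 131 CPM in Con and 134 to 151 CPM in Sus. *Chd9*, a chromodomain helicase, was 1.20-fold higher and *Etv6*, an ETS repressor of transcription, 1.21-fold higher. *Tubgcp4*, part of the gamma-tubulin complex that seeds microtubules, was 1.16-fold higher, and *Tor1aip1*, the torsin partner in the nuclear envelope, 1.17-fold higher.

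*Sparcl1* and *Pgm1* rose as well. *Sparcl1* encodes hevin, a secreted protein of astrocytes and some neurons that promotes synapses. Its levels were 247, 305, 306 and 297 CPM in D1 Con 1 to 4 and 362, 372, 349, 351 and 321 CPM in D1 Sus 1 to 5, 1.22-fold higher in the mean (log2 fold change 0.28, SE 0.07). The input of the D1 line held 1162 ± 104 CPM in Con and 1179 ± 61.9 CPM in Sus (n = 3 each), so that its level was several times higher in whole tissue than in the IPs. The rise is given beside the astrocyte markers below, and their part in it was not tested. *Pgm1*, a symbol of the phosphoglucomutase family, was at 1.19 ± 0.257 CPM in Con and 2.10 ± 0.400 CPM in Sus (1.75-fold), from 27 to 48 counts in Con and 46 to 71 counts in Sus. The symbols *Pgm1* and *Pgm2* were exchanged between releases of the mouse annotation and the deposited table gives symbols only. No position and no closer function are therefore given for *Pgm1*.

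Values follow for other genes of the 12 that fell. *Chmp3*, a subunit of the ESCRT-III complex that sorts membrane proteins, fell from 134 ± 11.1 to 117 ± 2.96 CPM (log2 fold change -0.19, SE 0.05). Its Con libraries held 124 to 150 CPM and its Sus libraries 114 to 120 CPM. *Smim20*, a factor of cytochrome oxidase assembly and the precursor of the peptide phoenixin, fell by 0.32 on the log2 scale (SE 0.09). *Polr3g*, a subunit of RNA polymerase III, was 25.6% lower, and *Alg1*, a mannosyltransferase of N-glycan synthesis, 13.9% lower. *Tgfa*, a ligand of the EGF receptor, was 15.8% lower, with 118 CPM in D1 Con 1, 92.9 to 95.3 CPM in the other Con libraries and 81.3 to 86.9 CPM in Sus. *Bag5*, a cochaperone of Hsp70, fell by 0.20 and *Fkbp1a*, the immunophilin FKBP12 that binds ryanodine receptors, by 0.17 on the log2 scale.

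**Figure D1:**
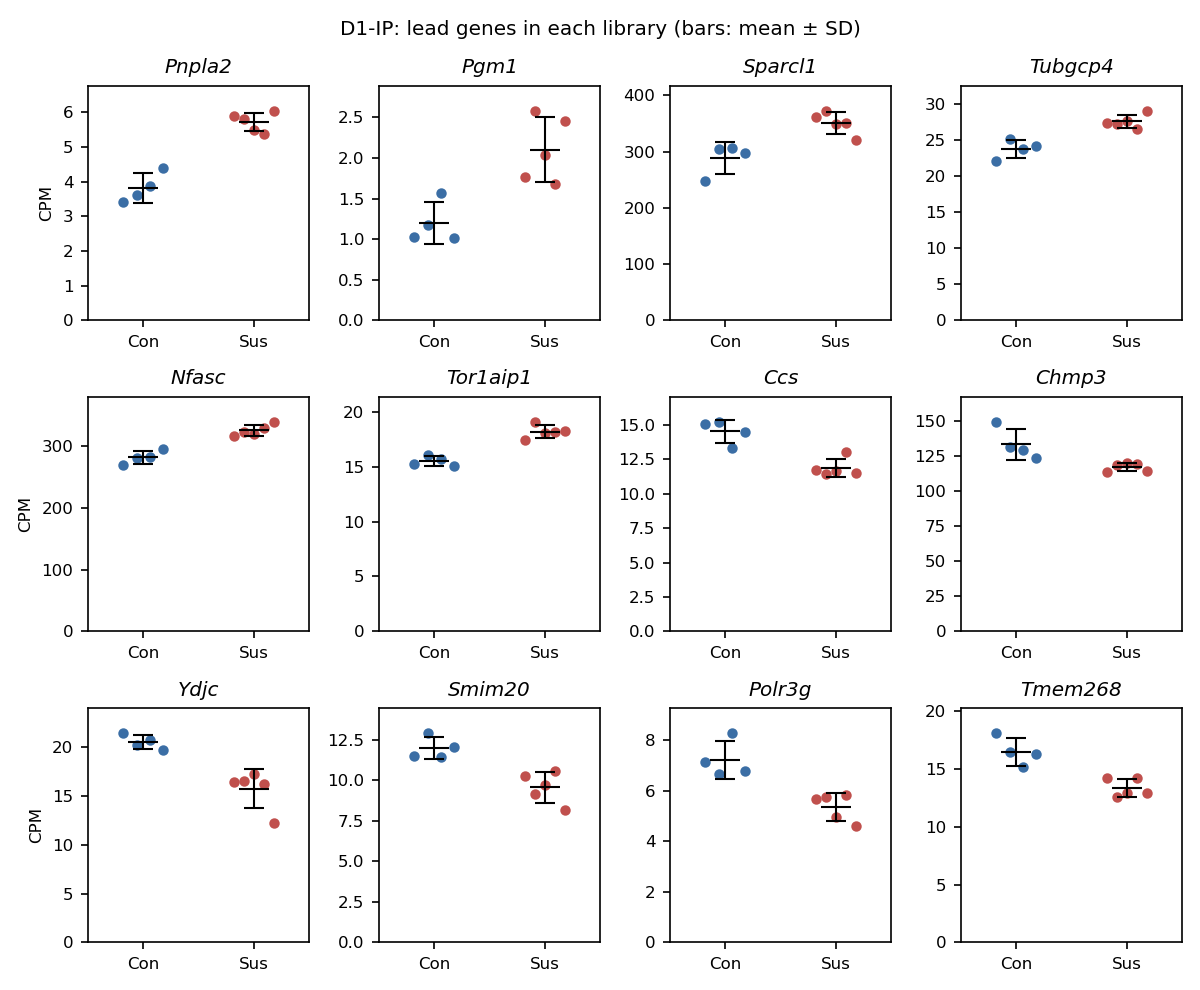
Level (CPM, axis from 0) of the 6 genes with the smallest p among those higher and the 6 among those lower, in each of 4 D1 Con (blue) and 5 D1 Sus (red) IP libraries; black bars are mean ± SD. The groups do not overlap in any panel, which was a condition for choosing them, and among the genes that rose the means differ by 1.15-fold in *Nfasc* to 1.75-fold in *Pgm1*.

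The 10 genes chosen for the largest change under the same conditions were at most 1.75-fold higher. Besides *Pgm1* and *Cep85l* (a centrosomal protein, 1.51-fold), the higher ones were *Fam161a* (a protein of cilia, 1.68-fold), *Zfp217* (1.54-fold) and *Ankrd34c* (1.53-fold), with means in Con of 0.914 to 4.13 CPM. *Zfp217* lost its call without D1 Con 2 or D1 Sus 3, and *Ankrd34c* without D1 Con 1. The lower ones were *Prorsd1* (33.4%), *Nubpl*, an assembly factor of respiratory complex I (26.4%), *Polr3g*, *Ydjc* (23.2%) and *Cdpf1* (21.9%). *Cdpf1* lost its call without D1 Con 2 or D1 Sus 1.

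Genes that mark MSNs, of both kinds, were lower in D1 Sus, and every one of these calls was lost without the library D1 Con 1. Of 11 markers of D2-MSNs 5 fell and 0 rose, with a median log2 fold change of -0.20, against a median of 0.00 over all genes (-0.00041). They were *Adora2a*, *Drd2*, *Penk*, *Gpr6* and *Gpr52*. Of 12 markers of D1-MSNs 2 fell, *Crym* and *Asic4*, with a median of -0.11. *Crym* was not richer in D1 Con than in D2 Con IPs (0.979 times), so it does not tell these cells apart here. Of 32 genes of MSN identity and cAMP signalling 7 fell, 0 rose and 31 had a negative fold change, with a median of -0.12. Without D1 Con 1, 0 of the genes in these 3 lists passed and their medians were -0.07, -0.05 and -0.04. The count of the identity list was 3 and 4 without D1 Sus 3 and D1 Sus 4, 11 and 12 without D1 Con 2 and D1 Con 4, and 14 with an offset for gene length and GC content. In these bulk samples, fewer cells of a type and less RNA per cell cannot be told apart.

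*Drd1* itself, the gene that names the cells, did not pass the test. Its levels were 387, 302, 341 and 306 CPM in D1 Con 1 to 4 and 328, 302, 277, 293 and 314 CPM in D1 Sus 1 to 5 (log2 fold change -0.14, SE 0.11). *Pdyn* and *Chrm4*, the muscarinic receptor that opposes Drd1 signalling, had log2 fold changes of -0.10 (SE 0.15) and -0.05 (SE 0.10), and that of *Chrm4* turned to 0.03 without D1 Con 1. *Tac1* was at 389 CPM in D1 Con 1, 331 to 335 CPM in the other Con libraries and 269 to 339 CPM in Sus (log2 fold change -0.23, SE 0.11).

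*Adora2a* had the smallest p among the D2-MSN markers. Its levels were 406, 301, 270 and 287 CPM in D1 Con 1 to 4 and 283, 280, 222, 254 and 286 CPM in D1 Sus 1 to 5. The ranges overlapped, and D1 Con 1 lay far above the rest. The mean was 16.2% lower (log2 fold change -0.25, SE 0.09). *Drd2* was 13.1% lower, with 84.9 to 119 CPM in Con and 76.4 to 96.6 CPM in Sus, and *Penk* 13.4% lower. *Drd2* also lost its call without D1 Con 2, D1 Sus 3 or D1 Sus 4, and *Penk* without D1 Sus 2, D1 Sus 3 or D1 Sus 4. In D2-IPs, where these genes are at their highest, the 11 markers had a median log2 fold change of -0.03 between Sus and Con and 0 passed. The 32 genes of MSN identity and cAMP signalling had a median of -0.08 in D2-IPs, with 2 called lower and 0 higher. The 12 markers of D1-MSNs had a median of -0.02 there, and 0 passed.

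Among the genes of MSN identity and signalling, the transcription factors *Rarb* and *Rxrg*, which answer to retinoic acid and *Gnb5*, the G protein subunit that pairs with the RGS9 protein of the striatum, were among those with the smallest p. *Rarb* was at 116 to 144 CPM in Con and 98.9 to 113 CPM in Sus, without overlap (log2 fold change -0.24, SE 0.08). *Rxrg* was 13.6% lower and *Gnb5* 10.6% lower. *Ppp1r1b*, *Arpp21* and *Gng7*, named here after their values were seen, fell as well. *Ppp1r1b* was at 2095 CPM in D1 Con 1, 1493 to 1550 CPM in the other Con libraries and 1253 to 1628 CPM in Sus, so that 3 of the Con libraries lay inside the range of Sus. Its log2 fold change was -0.20 (SE 0.09).

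**Figure D2:**
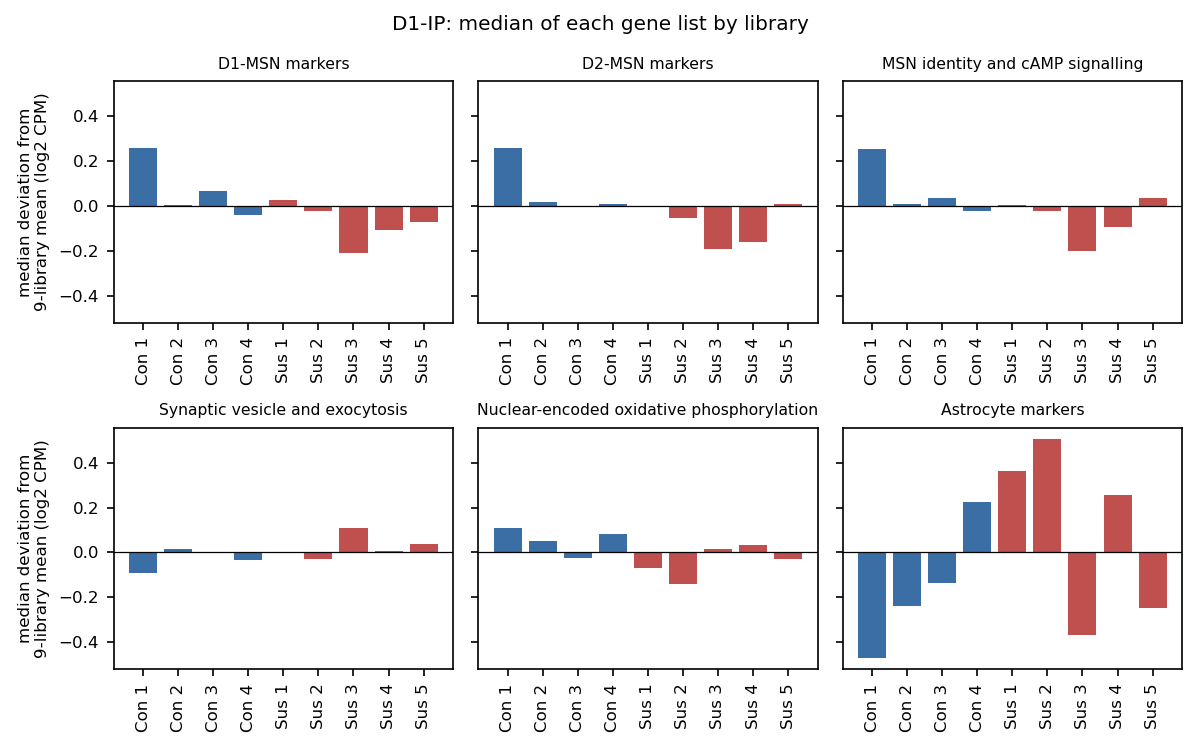
For 6 gene lists, the median over the list's genes of each library's deviation from the mean of the 9 D1-IPs (log2 CPM), with D1 Con in blue and D1 Sus in red. In the 3 MSN lists D1 Con 1 stands at 0.25 to 0.26 while the other Con libraries lie between -0.04 and 0.07, and the astrocyte panel has D1 Con 1 as its lowest library.

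Of the other cell types, only astrocyte and blood markers had sums that did not overlap between the groups. The 10 astrocyte markers summed to 379 to 520 CPM in Con and 553 to 607 CPM in Sus, without overlap (exact permutation test, two-sided p = 0.00794, the smallest this design allows, and 0.119 after Benjamini-Hochberg adjustment over 15 library measures). *Slc1a2*, the main glutamate transporter of astrocytes, whose mRNA some neurons also hold, made up most of that sum, at 278 to 407 CPM in Con and 378 to 487 CPM in Sus (log2 fold change 0.32, SE 0.16). All 10 markers had a positive fold change, with a median of 0.28, and *Aqp4*, the astrocyte water channel, was the 1 that passed. *Aqp4* lost its call without D1 Con 1, D1 Con 2, D1 Sus 1 or D1 Sus 2. The cortical and glutamatergic list summed to 876 to 1610 CPM in Con and 1053 to 1970 CPM in Sus, and 0 of its 12 genes passed. Oligodendrocyte markers summed to 531 to 670 CPM in Con and 507 to 811 CPM in Sus, and the sums of oligodendrocyte precursor, microglia, endothelial, cholinergic, GABAergic and choroid markers overlapped as well. Positive fold changes were not particular to astrocytes. All 12 cortical (median 0.31), 10 oligodendrocyte (0.15), 5 oligodendrocyte precursor (0.34) and 5 choroid and ependymal markers (0.45) had them. Microglia, endothelial, cholinergic and GABAergic markers had both signs, with medians of 0.10, 0.17, 0.08 and 0.03. The part of these cells in the fall of MSN genes was not tested.

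Blood contributed 1 measurable gene. *Alas2*, which makes heme in red cell precursors, was at 2, 5, 0 and 3 counts in D1 Con 1 to 4 and at 11, 8, 16, 10 and 16 counts in D1 Sus 1 to 5. Each Sus library was above each Con library (0.0912 ± 0.0773 against 0.471 ± 0.168 CPM, log2 fold change 2.34, SE 0.69). It was also higher in D2 Sus than in D2 Con (log2 fold change 2.52, SE 0.65) and in Sus inputs of the D1 line (2.02, SE 0.54). The hemoglobin genes of the list are listed at 0 in every library.

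Genes of synapses and axons stood mostly above 0. Of 61 genes of synaptic vesicles and exocytosis 7 rose (against 2.5% of all genes) and 0 fell, with a median log2 fold change of 0.05, and with the length and GC offset 4 rose, 1 fell and the median was 0.03. The 4 with the smallest p were *Dnm1*, the dynamin that pinches off vesicles (1.09-fold), *Bsn*, a scaffold of the active zone (1.15-fold), *Rims1*, which docks vesicles (1.19-fold), and *Rph3a*, a Rab3 effector (1.13-fold). *Dnm1* was at 1054 to 1143 CPM in Con and 1155 to 1254 CPM in Sus, without overlap. Only 2 genes of the list rose without D1 Con 1, D1 Sus 3 or D1 Sus 5. Of these 4 genes only *Dnm1* was called in every alternative fit.

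Of 57 synaptic adhesion molecules 6 rose and 0 fell (10.5% called, against 5.34% of all genes), with a median of 0.07. With the same offset 4 rose and the median was 0.03. *Nfasc* is described above. *Nrcam*, its relative at the axon initial segment, was at 312 to 377 CPM in Con and 351 to 423 CPM in Sus (1.13-fold), and its call was lost without D1 Con 4. *Clstn2*, a calsyntenin, was 1.19-fold higher and *Ptprd*, a receptor phosphatase that organizes presynaptic terminals, 1.16-fold. *Clstn2* and *Ptprd* lost their calls without D1 Con 1 or D1 Sus 3. The count of the list was 2 without D1 Con 1 or D1 Sus 3, 3 without D1 Con 4 and 10 in the 9 libraries alone. Of 69 axon guidance genes 6 rose and 2 fell (11.6% called), with a median of 0.10. *Sema4d*, a semaphorin, rose from 24.9 ± 2.33 to 29.4 ± 2.19 CPM, and *Plxna3*, a plexin receptor for semaphorins, was 1.24-fold higher. *Efnb3*, an ephrin ligand, fell by 0.13 on the log2 scale, with 202 CPM in D1 Con 1 against 178 to 182 CPM in the other Con libraries. Without D1 Con 1 this list had 4 genes higher and 0 lower, without D1 Sus 4 it had 4 and 1, without D1 Con 2 it had 13 and 3, and with the length and GC offset 3 and 4.

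The Shisa family and other AMPA receptor auxiliary subunits are of interest because the study followed *Shisa6*, whose product binds AMPA receptors. *Shisa6* was at 12.5, 17.2, 16.2 and 9.91 CPM in D1 Con 1 to 4 and 15.8, 15.7, 20.5, 16.6 and 17.2 CPM in D1 Sus 1 to 5. The ranges overlapped, with D1 Con 2 and 3 inside the range of Sus and D1 Con 1 and 4 below it. The mean was 1.23-fold higher (log2 fold change 0.30, SE 0.13, adjusted p = 0.846, edgeR). The call was lost without D1 Con 1, D1 Con 4 or D1 Sus 3, in the fit of the 9 libraries alone and with an offset for gene length and GC content. In D2-IPs *Shisa6* was at 9.41 ± 1.09 CPM in Con and 9.42 ± 1.09 CPM in Sus (n = 5 each), and the difference between the D1 and the D2 change was 0.30 on the log2 scale (SE 0.18), which did not pass the test. D1 Res libraries held 11.8 ± 1.92 CPM (n = 4).

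*Shisa7*, *Shisa8* and *Shisa9* had log2 fold changes of 0.08 (SE 0.08), 0.02 (SE 0.20) and -0.10 (SE 0.07), and none passed. Of the 19 auxiliary subunits tested *Shisa6* was the 1 that rose and *Gsg1l*, a relative of the claudins, the 1 that fell (10.6% lower). *Gsg1l* was also lower in D2 Sus than in D2 Con (log2 fold change -0.17, SE 0.07), and its D1 call was lost without D1 Con 1, D1 Con 2, D1 Sus 1, D1 Sus 3 or D1 Sus 4. Of 9 AMPA and kainate receptor subunits, 13 NMDA and metabotropic glutamate receptors and 35 scaffolds and kinases of the postsynaptic density, 0 passed. In the fit of the 9 libraries alone 5 genes of the postsynaptic density list and 1 of the NMDA and metabotropic list were higher.

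**Figure D3:**
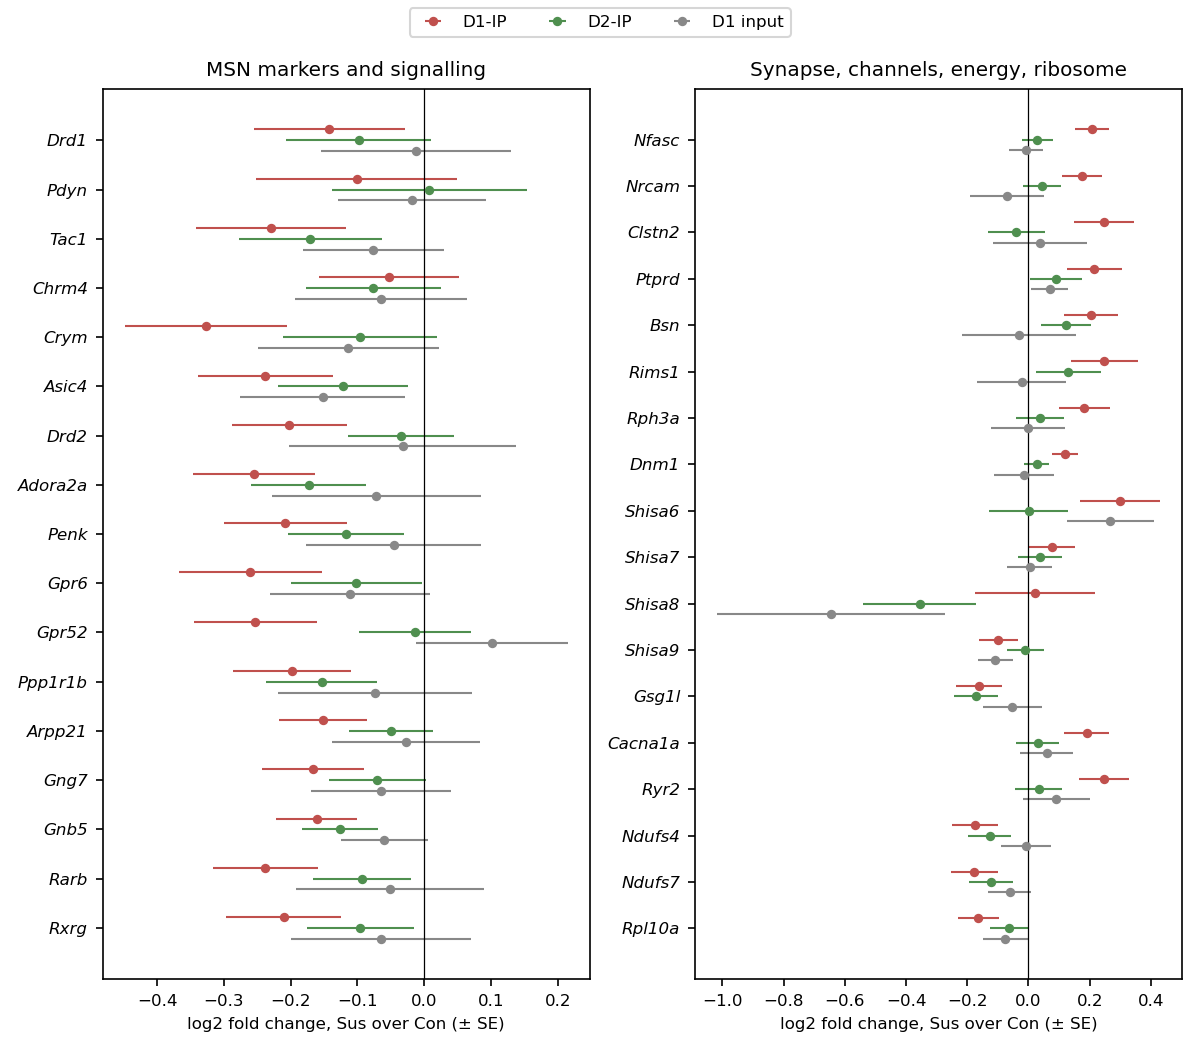
Log2 fold change of Sus over Con with its SE for 35 genes, from the D1-IPs (red), the D2-IPs (green) and the inputs of the D1 line (gray). In the left panel all 17 MSN genes lie below 0 in D1-IPs, from -0.05 for *Chrm4* to -0.33 for *Crym*, and in the right panel *Shisa6* is at 0.30 in D1-IPs and at 0.00 in D2-IPs.

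Channels and receptors moved in both directions. Of 79 potassium channel genes 5 rose and 1 fell (7.59% called, near the 5.34% of all genes). *Kcnb2*, a delayed rectifier subunit, rose from 8.04 ± 0.931 to 10.9 ± 2.06 CPM, and *Kcnj10*, the inward rectifier known from astrocytes, from 17.6 ± 4.89 to 26.9 ± 8.67 CPM. *Kcnip2*, an accessory subunit of A-type channels that MSNs express, fell by 0.20 on the log2 scale. Without D1 Con 1 the list had 1 higher and 0 lower, *Kcnj10* and *Kcnip2* then did not pass, and *Kcnj10* also lost its call without D1 Sus 1. *Cacna1a*, the pore of P/Q-type calcium channels, was at 122 ± 2.24 CPM in Con and 139.6 ± 7.13 CPM in Sus, without overlap (1.14-fold) and was called in every alternative fit. Of 64 neurotransmitter and peptide receptors 4 rose and 4 fell (12.5% called), and 1 rose and 0 fell without D1 Con 1. *Chrm3*, a muscarinic receptor, was 1.30-fold higher, with 18.6 to 29.2 CPM in Con and 24.9 to 35.7 CPM in Sus. *Gabrd*, the delta subunit of extrasynaptic GABA-A receptors, was at 178 CPM in D1 Con 1, 135 to 140 CPM in the other Con libraries and 124 to 133 CPM in Sus (13.3% lower), and its call was lost without D1 Con 1.

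Stress-responsive and activity-dependent genes showed few calls. Of 31 immediate early genes tested 0 passed, although 26 had a positive fold change, with a median of 0.15, and 3 rose without D1 Con 2. *Fosb*, which neuronal activity induces, was at 12.2 to 16.7 CPM in Con and 15.6 to 22.8 CPM in Sus (log2 fold change 0.28, SE 0.14). The median of the list was 0.02 without D1 Con 4 or D1 Sus 3, and *Fosb* passed in 8 of 18 alternatives, among them DESeq2, the 9 libraries alone and the fits without D1 Con 1, D1 Con 2 or D1 Sus 2. Of 30 genes of the glucocorticoid and CRH response *Pnpla2* rose and *Sgk1*, a kinase that glucocorticoids induce, fell (9.39% lower). *Sgk1* lost its call without D1 Con 1 or D1 Sus 4. *Hspa8*, the constitutive Hsp70 chaperone, was at 1743 to 2087 CPM in Con and 2096 to 2318 CPM in Sus (12.2% higher), and was lost without any of D1 Con 1, 2 or 4 and D1 Sus 1, 2 or 5. *Sc5d*, an enzyme of cholesterol synthesis, was 1.17-fold higher and was called in every alternative fit. Of the 24 genes of cholesterol synthesis and uptake 22 had a positive fold change, with a median of 0.09.

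Genes of respiration and of ribosomes stood below 0, with few calls. Of 85 nuclear genes of oxidative phosphorylation 81 had a negative fold change, with a median of -0.09, and 3 fell: *Ndufs4*, *Ndufs7* and *Ndufb11*, all subunits of complex I. *Ndufs4* was at 68.7 to 74.3 CPM in Con and 60.5 to 67.3 CPM in Sus, without overlap (11.4% lower). None of them passed without D1 Con 1 or D1 Sus 2, and the list had 1 call without D1 Con 4 or D1 Sus 5 and 7 without D1 Con 3. Of 81 cytosolic ribosomal proteins 76 had a negative fold change, with a median of -0.09, and 2 fell, *Rpl10a* and *Rps9*, with 0 left without D1 Con 1 or D1 Con 4. The median of OXPHOS genes was -0.03 and that of ribosomal proteins -0.03 in a fit with an offset for gene length and GC content that was added after the data were seen. In D2-IPs the medians of these lists were -0.11 and -0.07.

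**Figure D4:**
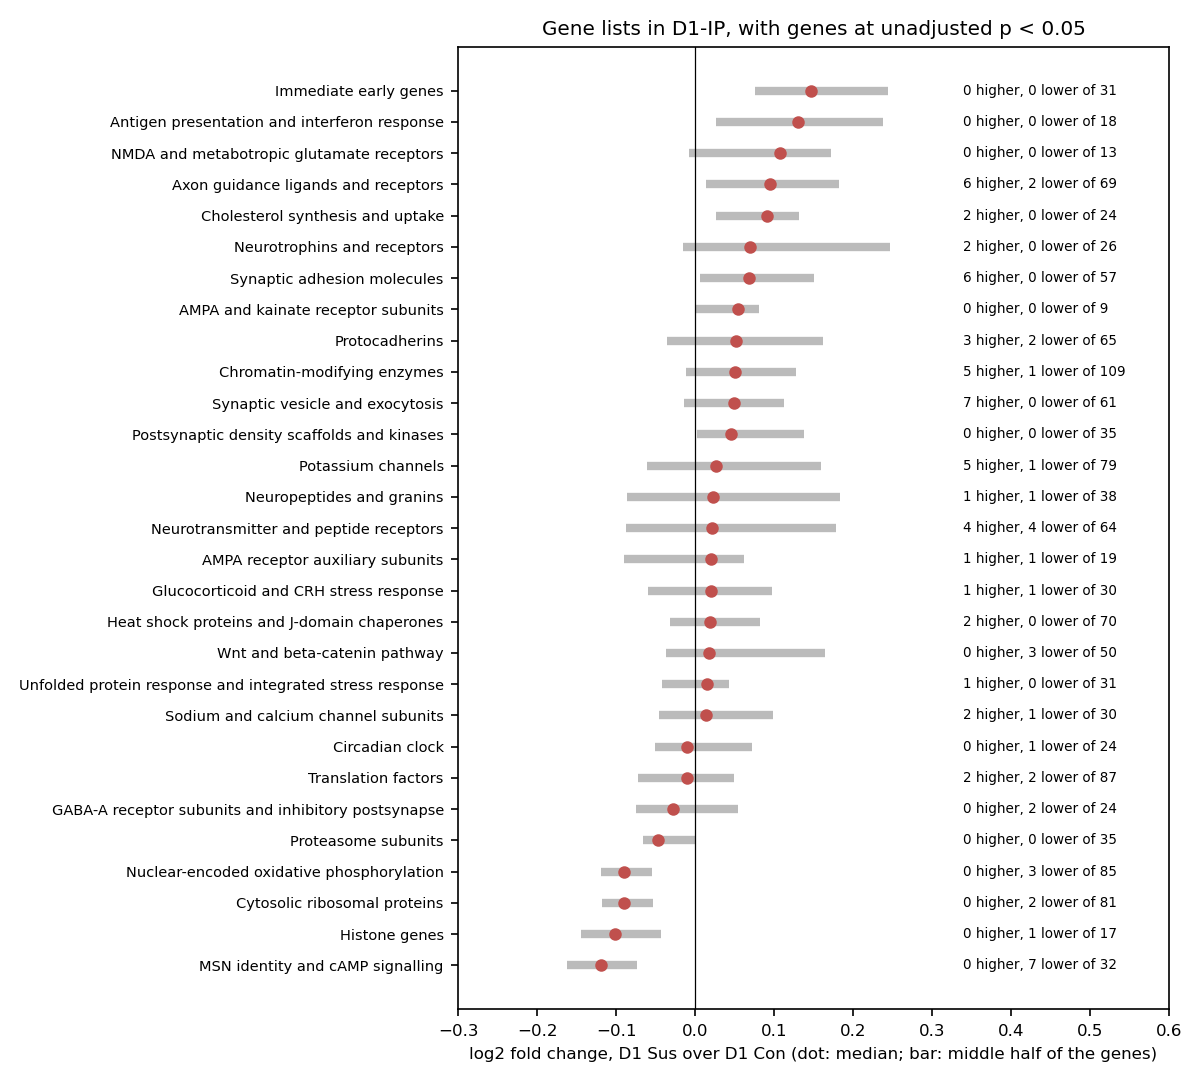
Median log2 fold change (dot) and interquartile range (bar) for 29 gene lists in D1 Sus over D1 Con, with the genes at an unadjusted p under 0.05 in each direction printed at the right. Medians run from -0.12 for MSN identity and cAMP signalling to 0.15 for immediate early genes, and no list has more than 7 genes called in 1 direction.

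Fold changes followed several properties of the genes, in D1-IPs and in D2-IPs. Sorted by the length of the longest transcript into 5 groups of equal size, the shortest 2809 genes had a median log2 fold change of -0.05 with 28 called higher and 142 lower, and the longest 2809 had a median of 0.05 with 146 higher and 14 lower. The medians of the same groups were -0.05 and 0.04 in the D2-IPs and -0.03 and 0.02 in the inputs of the D1 line. Sorted by the ratio of IP to input in D2 Con, which shares no library with the D1-IPs, the group of 2845 genes richest in input had a median of 0.14 with 135 higher and 10 lower, and the group richest in IP had a median of -0.04 with 17 higher and 169 lower. The D2 comparison sorted by the D1 Con ratio gave 0.10 and -0.03. In the D1 inputs, groups by the fitted D2 Con ratio had medians of -0.01 (richest in input) and -0.02 (richest in IP). By gene span, the shortest and longest groups had medians of -0.04 and 0.05 in D1-IPs and -0.03 and 0.03 in D2-IPs. By mean log2 CPM, the lowest and highest groups had medians of 0.09 and -0.01 in D1-IPs and 0.10 and -0.01 in D2-IPs. The part of length, span, level and enrichment in the calls was not tested beyond these values and the offset.

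**Figure D5:**
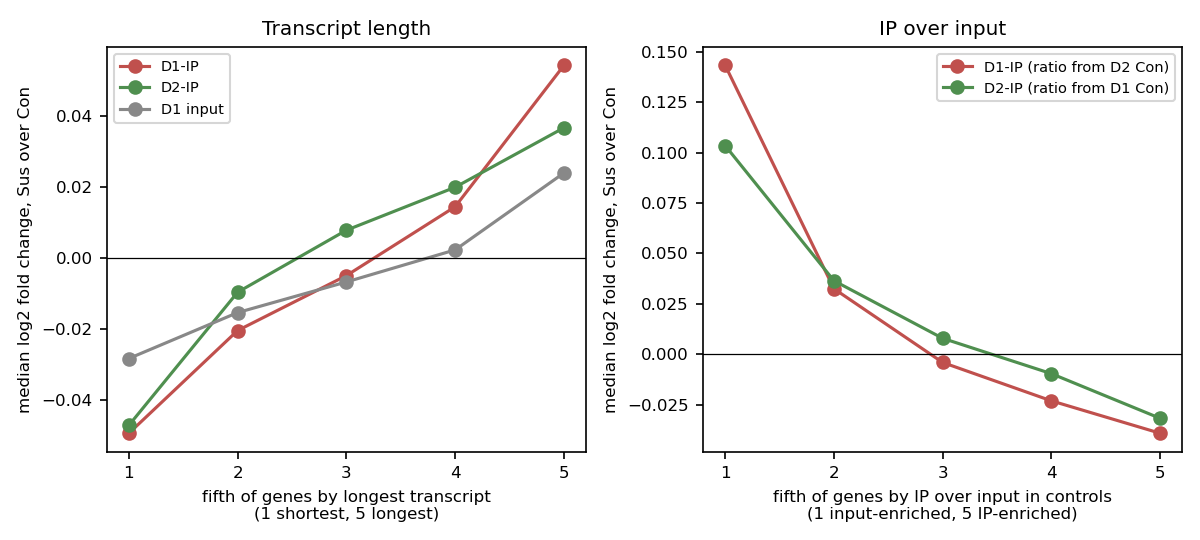
Median log2 fold change of Sus over Con in 5 groups of genes of equal size, by length of the longest transcript (left; D1-IPs red, D2-IPs green, D1 inputs gray) and by the ratio of IP to input in the control libraries of the other line (right). D1-IP medians climb from -0.05 to 0.05 with length and drop from 0.14 to -0.04 with enrichment in IP, and the D2-IPs follow both.

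D2-IPs, made from other mice, give an independent view of the same stress contrast. There 523 genes (3.68%) were called between D2 Sus and D2 Con, 0 at an adjusted p. The calls shared 56 genes. Of these, 53 moved the same way (21 higher, 32 lower), which are 6.98% of the D1 calls and 10.1% of the D2 calls. Of the 759 D1 calls 77.5% had the same sign in D2. The share of matching signs over all genes is not given here. D1-IPs and D2-IPs share the trends with length and enrichment described above, and the part of these trends in the matching signs was not tested. Among the 24 genes with the smallest p, 20 had the same sign in D2 and 3 were called there in the same direction. They were *Tor1aip1* (D2 log2 fold change 0.17, SE 0.06), *Chmp3* (-0.13, SE 0.05) and *Bag5* (-0.13, SE 0.06). *Gabrd*, *Gnb5*, *Gsg1l* and *Wnt2* were also called lower, and *Sema4d*, *Kdm8* and *Alas2* higher, in both.

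A direct test of whether the D1 change differed from the D2 change called 0 genes at an adjusted p and 259 (1.82%) at an unadjusted p (DESeq2 called 0 and 240). *Pnpla2* rose by 0.47 more on the log2 scale in D1 than in D2 (SE 0.16), and *Ccs* fell by 0.21 more (SE 0.10). Both genes were chosen for their D1 change, which enters this difference. In the inputs of the D1 line 475 of 15063 genes (3.15%) were called between 3 Sus and 3 Con libraries, 2 of them at an adjusted p. Of the 24 genes with the smallest p in the IPs, 17 had the same sign in the inputs and *Chd9* was the 1 called there (log2 fold change 0.17, SE 0.07). Inputs were saved from the homogenates used for IPs, so they are not a separate set of mice. The share of matching signs over all genes is not given for the inputs either.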

How the data were processed

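Each library was made from poly-A RNA of HA immunoprecipitates, or of homogenate for inputs, from 2 pooled mice. The authors trimmed reads with cutadapt, aligned them to mm10 with STAR, counted them with HTSeq and tested with DESeq2 (versions not given in the sources used here). The deposited values are raw counts per gene symbol, whole numbers without normalization. Beside 24552 genes the table has 5 rows for reads outside any gene, which held 18.0% to 24.5% of the reads in the 9 libraries and were left out of all sums. Of the columns, 2 (named D1 Con 5 and D1 Res 5) have no sample description and were not used, nor was a table of Sirt1-KO libraries. No pair of replicates was a duplicate.

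TMM factors and edgeR 4.0.16's quasi-likelihood test (R 4.3.3, limma 3.58.1) were run on the 28 IPs with 6 group means, for genes kept by filterByExpr (minimum count 10, minimum total count 15), and on the 18 inputs likewise. SEs follow from the F statistic. P-values measure the spread between pools of mice. Library sums were compared by exact permutation. Lengths and positions are from GENCODE vM21 by symbol (98.7% of tested genes). The 42 gene lists and the alternatives (RLE, other filters, DESeq2 1.42.0, fewer libraries, replicate blocks, each library left out) were chosen with earlier results of these data known. Genes named are those with an adjusted p under 0.05, the 12 per direction with the smallest p and the 5 with the largest change (p under 0.05, mean of at least 1 CPM, no overlap), up to 4 per list with the smallest p, and set MSN and Shisa genes. *Ppp1r1b*, *Arpp21*, *Gng7* and genes called in both lines were named after their values were seen. Some genes and lists that met these rules are not reported here. The scripts were tested on simulated data. Figures used Python 3.11.15 and matplotlib 3.10.9.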

Additional observations from a re-analysis of the deposited data

Results flagged for a closer look

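In 16 of 248 groups of values checked (6.45%), over 110 genes, 1 library stood farther from the rest of its group than Dixon's test allows at the 95% level, a share that chance gives to about 5% of groups. Most of them were D1 Con 1. It was the highest Con library for *Ppp1r1b* (2095 CPM, others 1493 to 1550), *Arpp21* (1365 CPM, others 1165 to 1192), *Gpr6* (63.7 CPM, others 44.6 to 45.7) and *Tac1* (389 CPM, others 331 to 335), all genes of MSNs. It was also the highest for *Gabrd* (178 CPM, others 135 to 140), *Tgfa* (118 CPM, others 92.9 to 95.3), *Fkbp1a* (929 CPM, others 823 to 836) and *Efnb3* (202 CPM, others 178 to 182). It was the lowest for *Sparcl1* (247 CPM, others 297 to 306) and *Ntrk2*, the BDNF receptor (503.9 CPM, others 570 to 580).

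The other flags fell on 5 libraries. D1 Con 2 was lowest for *Pcdhb5*, a protocadherin (6.85 CPM, others 9.44 to 9.87), and highest for *Sc5d* (34.2 CPM, others 27.5 to 28.1). D1 Sus 4 was highest for *Ccs* (13.1 CPM, others 11.4 to 11.7). D1 Sus 1 was highest for *Eif2ak3*, the kinase PERK of the unfolded protein response (29.4 CPM, others 26.4 to 26.5). D1 Sus 3 was lowest for *Pcsk1*, a convertase of prohormones (13.9 CPM, others 17.2 to 17.6), and D1 Sus 5 for *Ydjc* (12.2 CPM, others 16.2 to 17.2).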

How the results depend on the processing

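The count of genes at an adjusted p under 0.05 was 0 in all 18 alternatives. At an unadjusted p it was 759 and ran from 482 to 921 when 1 library was left out, with the lowest value without D1 Con 1 (294 higher, 188 lower). It was 760 with RLE size factors (396 higher, 364 lower), 670 under a filter at a mean count of 50 (394 higher, 276 lower), 783 with DESeq2 (422 higher, 361 lower), 926 in the 9 libraries alone (536 higher, 390 lower), 993 in 13 D1-IPs (563 higher, 430 lower) and 701 with the length and GC offset, which was added after seeing the data. Of 1971 single-gene values 1716 kept direction and side of the threshold, 227 lost and 24 gained the call. The 4 reversals, none of a called gene, were *Chrm4* without D1 Con 1 (0.0327, range over left-out libraries -0.0931 to 0.0327) and *Shisa8* without D1 Con 1 (-0.0372), D1 Con 4 (-0.0193) or D1 Sus 4 (-0.0331), with a range of -0.0372 to 0.157. The cause was not tested. Replicate numbers did not pair the samples (correlations of same-numbered Con and Sus libraries from -0.11 to 0.11, and not every library correlated best with its own number). With the replicate number as a block the count was 1040 in 28 IPs and 1003 in 9 libraries, and 472 in the inputs. With 4 and 5 pools, genes of few counts are measured coarsely.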

Other observations

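In 4 further lists the counts of genes at an unadjusted p under 0.05 in D1-IPs were few and are given beside the 5.34% over all genes; single genes are named for their values. Of 26 genes of neurotrophins and receptors 2 rose and 0 fell, with *Fgfr3*, a receptor of fibroblast growth factors (log2 fold change 0.52, SE 0.19), and *Ntrk2*, the BDNF receptor (log2 fold change 0.17, SE 0.08). *Pcsk1*, which cleaves prohormones, was the 1 of 38 genes of neuropeptides and granins that rose (log2 fold change 0.50, SE 0.15). Of 50 genes of the Wnt pathway 0 rose and 3 fell, among them the ligand *Wnt7a* (log2 fold change -0.32, SE 0.12) and the scaffold *Axin1* (log2 fold change -0.17, SE 0.06). Of 109 chromatin-modifying enzymes 5 rose and 1 fell, with *Hdac9*, a histone deacetylase (log2 fold change 0.22, SE 0.09), and *Chd5*, a chromodomain helicase of neurons (log2 fold change 0.16, SE 0.07), among the higher ones, a share of calls near that over all genes. *Pcsk1* and *Fgfr3* were called in every alternative fit that tested them. Without D1 Con 1, *Ntrk2*, *Wnt7a*, *Axin1*, *Hdac9* and *Chd5* lost their calls and the Wnt list had 0 in either direction; without D1 Con 2 it had 4 higher and 3 lower. *Ntrk2* also lost its call without D1 Sus 4 or D1 Sus 5, *Hdac9* without D1 Sus 3, *Chd5* without D1 Sus 3, D1 Sus 4 or D1 Sus 5 and *Axin1* without D1 Con 4. The chromatin list had 13 genes higher without D1 Sus 3, 3 without D1 Sus 5, 12 in the 9 libraries alone and 18 in 13 D1-IPs.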
